A study of Mus musculus with 14 samples.

Results

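The genes described here are 9 regulators of retinal neurogenesis: Neurog2, Atoh7, Olig2, Ptf1a, Foxn4, Insm1, Hes6, Gadd45a and Btg2. They and the gene lists below were chosen by name, with earlier results of these data known. Their counts beside the share of all genes are therefore descriptions and not tests. All 9 were among the 19337 genes of the newborn (postnatal day 0, P0) table. Only 4 of them (Insm1, Hes6, Gadd45a and Btg2) were among the 11613 genes of the postnatal day 22 (P22) table. Read counts per gene came from RNA-seq of whole mouse retina. The control animals were heterozygous (Peanut +/-, called het here) and the others homozygous mutant (Peanut -/-, called KO) for the long noncoding RNA Peanut, so both genotypes lacked at least 1 copy. The P0 groups held 4 het and 4 KO libraries, and the P22 groups 2 het and 4 KO libraries. The labels used here give no strain, no structure of the mutant allele and no statement that the samples came from separate animals, so p-values measure the spread between these samples, which may be technical.

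In the developing retina, dividing progenitors first renew themselves and then pass through a neurogenic state before they leave the cell cycle. Proneural basic helix-loop-helix (bHLH) factors drive that step by binding E-boxes in DNA and switching on neuronal genes and Notch ligands. The ligands activate Notch receptors on neighbouring cells, where Hes and Hey repressors hold the proneural genes down. Around birth the mouse retina still holds many progenitors, and by the time P22 is reached neurogenesis in the retina is over.

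Library totals were 15305745 to 19833083 reads in P0 het and 15028865 to 19394384 in P0 KO. At P22 they were 11044462 to 17990507 in KO, but 1819688 in het replicate 1 and 22813199 in het replicate 2. No entry carries the name Peanut. The lncRNA gene Gm11454 held 14 to 31 reads in each P0 het library and 0 in each P0 KO library, KO replicate 3 included. Whether Gm11454 is Peanut was not tested, so its reads describe these libraries and do not establish their genotype. Gm11454 has no entry in the P22 table. The first principal component of all P0 genes carried 41.6% of the variance. On it the 4 hets fell between -23.1 and -4.60, and KO replicates 1, 2 and 4 between 18.5 and 27.4. KO replicate 3 lay at -23.0, beside the hets. P0 fold changes are therefore given with and without KO replicate 3. That library was left out with its position known, so p-values of the fit over the other 7 libraries describe those libraries and are not independent evidence.

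All 9 genes are protein coding. In GRCm38, Neurog2 (ENSMUSG00000027967.8) spans 127633135 to 127635631 on the plus strand of chromosome 3, and Atoh7 (ENSMUSG00000036816.4) spans 63099651 to 63101279 on the plus strand of chromosome 10. Olig2 (ENSMUSG00000039830.9) spans 91225457 to 91228677 on the plus strand of chromosome 16. Chromosome 2 carries Ptf1a (ENSMUSG00000026735.2, 19445663 to 19447501) and Insm1 (ENSMUSG00000068154.5, 146221921 to 146225020), both on the plus strand. Chromosome 1 carries Hes6 (ENSMUSG00000067071.8, 91411483 to 91414038) and Btg2 (ENSMUSG00000020423.6, 134075170 to 134079120), both on the minus strand. Foxn4 (ENSMUSG00000042002.11) spans 114254164 to 114273807 on the minus strand of chromosome 5, and Gadd45a (ENSMUSG00000036390.8) spans 67035096 to 67037457 on the minus strand of chromosome 6.

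RefSeq promoter windows (GRCm38.p6, the 250 bases before the start) were found for 8 of the 9 genes, 9 windows in all because Hes6 has a pair of starts. Insm1 had no entry. The windows are shown for Atoh7 and Hes6, which held the most E-boxes, and for Neurog2 and Foxn4, whose RNA differed most between genotypes once KO replicate 3 was left out. Each reads 5′ to 3′ on the gene's strand, and capitals mark the E-box CANNTG, the word bound by bHLH factors.
Atoh7, chr10:63099535-63099784, plus strand: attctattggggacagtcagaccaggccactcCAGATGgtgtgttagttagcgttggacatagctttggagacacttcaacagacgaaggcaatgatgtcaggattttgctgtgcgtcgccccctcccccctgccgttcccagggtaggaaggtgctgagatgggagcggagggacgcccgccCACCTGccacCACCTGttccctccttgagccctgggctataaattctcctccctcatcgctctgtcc
Hes6, chr1:91414039-91414288, minus strand: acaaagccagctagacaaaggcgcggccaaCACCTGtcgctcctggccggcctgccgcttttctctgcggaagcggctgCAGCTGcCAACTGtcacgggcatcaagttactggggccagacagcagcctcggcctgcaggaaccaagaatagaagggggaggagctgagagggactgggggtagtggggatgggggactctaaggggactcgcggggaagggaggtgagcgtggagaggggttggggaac
Neurog2, chr3:127632886-127633135, plus strand: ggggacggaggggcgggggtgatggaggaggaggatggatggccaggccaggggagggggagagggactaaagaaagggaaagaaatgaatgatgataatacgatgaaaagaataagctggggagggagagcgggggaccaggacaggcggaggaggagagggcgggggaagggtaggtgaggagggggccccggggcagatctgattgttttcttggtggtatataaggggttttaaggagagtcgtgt
Foxn4, chr5:114273762-114274011, minus strand: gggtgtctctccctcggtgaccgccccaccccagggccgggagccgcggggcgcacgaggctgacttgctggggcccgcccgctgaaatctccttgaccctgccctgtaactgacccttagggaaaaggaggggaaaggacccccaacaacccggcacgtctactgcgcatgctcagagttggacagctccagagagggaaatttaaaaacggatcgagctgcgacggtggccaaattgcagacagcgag
The Atoh7 window and this Hes6 window held 3 E-boxes each, against none in the Neurog2 and Foxn4 windows. Across 32851 RefSeq promoter windows of the same length, 66.2% held at least 1 E-box and 12.2% held 3 or more. Over the 9 windows of these genes, 4 held an E-box: both Hes6 windows, Atoh7 and Gadd45a. The word TGGGAA, bound by the Notch mediator RBPJ and searched on both strands, was in 3 windows (Atoh7, Ptf1a and Btg2), against 21.6% of all windows. The N-box CACNAG, a word bound by Hes repressors and also searched on both strands, was in 2 windows (Foxn4 and the other Hes6 window), against 36.7% of all. The words CATCTG and CAGATG, E-boxes preferred by Neurog and Atoh factors, occurred only in the Atoh7 window, once, against 14.4% of all windows. CATCTG and CAGATG are themselves E-boxes and were counted among them. A match is a word in the sequence, not a measured binding site.

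Expression levels at P0 differed widely among the 9 genes. Per kilobase of annotated exon, Hes6 was highest in het retina at 164 ± 7.33 CPM per kilobase (CPM, reads of a gene scaled to a common library size; SD, n = 4), followed by Btg2 at 67.6 ± 4.08. Insm1 and Foxn4 stood next at 29.1 ± 2.64 and 28.9 ± 4.82 CPM per kilobase, and their het libraries overlapped. Neurog2 (14.2 ± 2.20) and Atoh7 (12.1 ± 1.08) overlapped in the same way, as did Olig2 (7.84 ± 0.494) and Gadd45a (7.68 ± 1.63). Ptf1a was lowest, at 1.52 ± 0.5001 CPM per kilobase, from 23 to 58 reads in each P0 library. Values below are CPM with edgeR's TMM scaling and are not divided by length.

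At P0 the mean of the 4 KO libraries was below that of the 4 het libraries for each of the 9 genes, but none of the 9 differences passed the test over all 8 libraries. By the quasi-likelihood test of edgeR, with p-values adjusted over all genes (Benjamini-Hochberg), 0 of the 9 were called at an adjusted p of 0.05, against 0.00517% of all genes. A negative log2 fold change was found for 45.1% of all genes. At an unadjusted p under 0.05 it found 1 of the 9, Neurog2, against 8.17% of all genes. DESeq2's Wald test also called 0, and limma-voom with sample weights, which can give single libraries less weight, called 3, all lower in KO, against 11.1% of all genes called and 8.66% called lower in that fit. The median log2 fold change of the 9 was -0.19, and that of all genes was 0.028. KO replicate 3 was the highest of the 4 KO libraries for all 9 genes (30.3% of all genes) and the highest of all 8 libraries for 4 of them (12.6% of all genes). With that library left out, edgeR's test called 5 of the 9, all lower in KO, against 14.7% of all genes called and 12.6% called lower. KO replicates 1, 2 and 4 then lay below every het library for those same 5 genes, against 15.6% of all genes. With all 4 KO libraries, 0 of the 9 lay wholly below the hets, against 0.946% of all genes.

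Among the bHLH factors, Neurog2, the proneural activator of the neurogenic state, read 34.5, 28.5, 26.6 and 37.0 CPM in het replicates 1 to 4, and 21.6, 24.8, 30.3 and 23.1 CPM in KO replicates 1 to 4. KO replicates 1, 2 and 4 lay below all hets, and KO replicate 3 lay within the het range. On the log2 scale KO minus het was -0.34 (SE 0.13, adjusted p = 0.526 by edgeR), and -0.48 without KO replicate 3 (SE 0.12, edgeR adjusted p = 0.0130). Neurog2 had the lowest false discovery rate of the 9 in the authors' deposited table at P0, 0.433.

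Atoh7, the factor required for retinal ganglion cells, read 21.7, 17.8, 18.8 and 20.6 CPM in het. In KO it read 10.5, 19.5, 21.8 and 16.6 CPM. Only KO replicates 1 and 4 were below every het. KO differed from het by -0.20 in log2 (SE 0.17, adjusted p = 0.623 by edgeR), and -0.38 without KO replicate 3 (SE 0.16, edgeR adjusted p = 0.129). Over 18 alternative fits the Atoh7 difference ran from -0.38 to -0.03 and was called in 0.

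Olig2, which marks neurogenic progenitors close to their last division, was even across the hets at 20.6, 19.0, 18.5 and 21.2 CPM. In KO it read 14.3, 14.96, 27.4 and 18.3 CPM, so that 3 libraries lay below the hets and KO replicate 3 above all of them. The log2 fold change moved from -0.08 (SE 0.17, edgeR adjusted p = 0.849) to -0.36 without KO replicate 3 (SE 0.11, edgeR adjusted p = 0.0441).

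Ptf1a, which directs progenitors to amacrine and horizontal fates, read 3.26, 1.68, 1.70 and 2.53 CPM in het and 1.73, 2.20, 3.12 and 1.49 CPM in KO. The ranges overlapped, with KO replicate 4 below every het and het replicate 1 above every KO library. Over all 8 libraries KO minus het was -0.08 in log2 (SE 0.28, adjusted p = 0.917 by edgeR), and -0.35 without KO replicate 3 (SE 0.27, edgeR adjusted p = 0.410).

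Foxn4, a forkhead factor that acts upstream of Ptf1a and gives progenitors the competence to make amacrine and horizontal cells, had 1 KO library far from the other 3. It read 89.0, 105, 79.6 and 116 CPM in het, and 60.2, 63.9, 129 and 71.2 CPM in KO. KO replicate 3 was the highest of the 8 libraries and the other 3 KO libraries were the lowest. On the log2 scale KO minus het was -0.26 (SE 0.21, adjusted p = 0.591 by edgeR), and -0.62 without KO replicate 3 (SE 0.12, edgeR adjusted p = 0.00296), the largest of the 9.

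Insm1, a zinc finger repressor of late progenitors and newborn neurons, followed the same order. It read 101, 88.0, 81.7 and 89.7 CPM in het and 63.3, 77.6, 110 and 65.5 CPM in KO, where replicate 3 was again the highest of all 8 and the other 3 lay below every het. KO differed from het by -0.19 in log2 (SE 0.15, adjusted p = 0.602 by edgeR), and -0.43 without KO replicate 3 (SE 0.09, edgeR adjusted p = 0.00733).

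Hes6, a Hes family member that opposes Hes1 and favours differentiation, varied little. The hets read 291, 294, 316 and 287 CPM, and the KO libraries 264, 250, 302 and 244 CPM. KO replicates 1, 2 and 4 were below all hets. Over all 8 libraries KO minus het was -0.16 in log2 (SE 0.10, adjusted p = 0.533 by edgeR), and -0.27 without KO replicate 3 (SE 0.08, edgeR adjusted p = 0.0351).

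The cell cycle exit genes did not pass with or without that library. Gadd45a, a growth arrest and DNA damage response gene, read 16.6, 9.81, 13.0 and 14.7 CPM in het. In KO replicates 1, 2 and 4 it lay between 10.5 and 10.8 CPM, inside the het range, and KO replicate 3 stood apart at 14.0 CPM. On the log2 scale KO minus het was -0.23 (SE 0.16, adjusted p = 0.567 by edgeR), and -0.37 without KO replicate 3 (SE 0.15, edgeR adjusted p = 0.119).

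Btg2, an antiproliferative gene switched on in progenitors before neurogenic divisions, read 187, 186, 198 and 171 CPM in het and 162, 176, 181 and 158 CPM in KO. The ranges overlapped. KO differed from het by -0.13 in log2 (SE 0.09, adjusted p = 0.571 by edgeR), and -0.20 without KO replicate 3 (SE 0.08, edgeR adjusted p = 0.110).

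**Figure D1:**
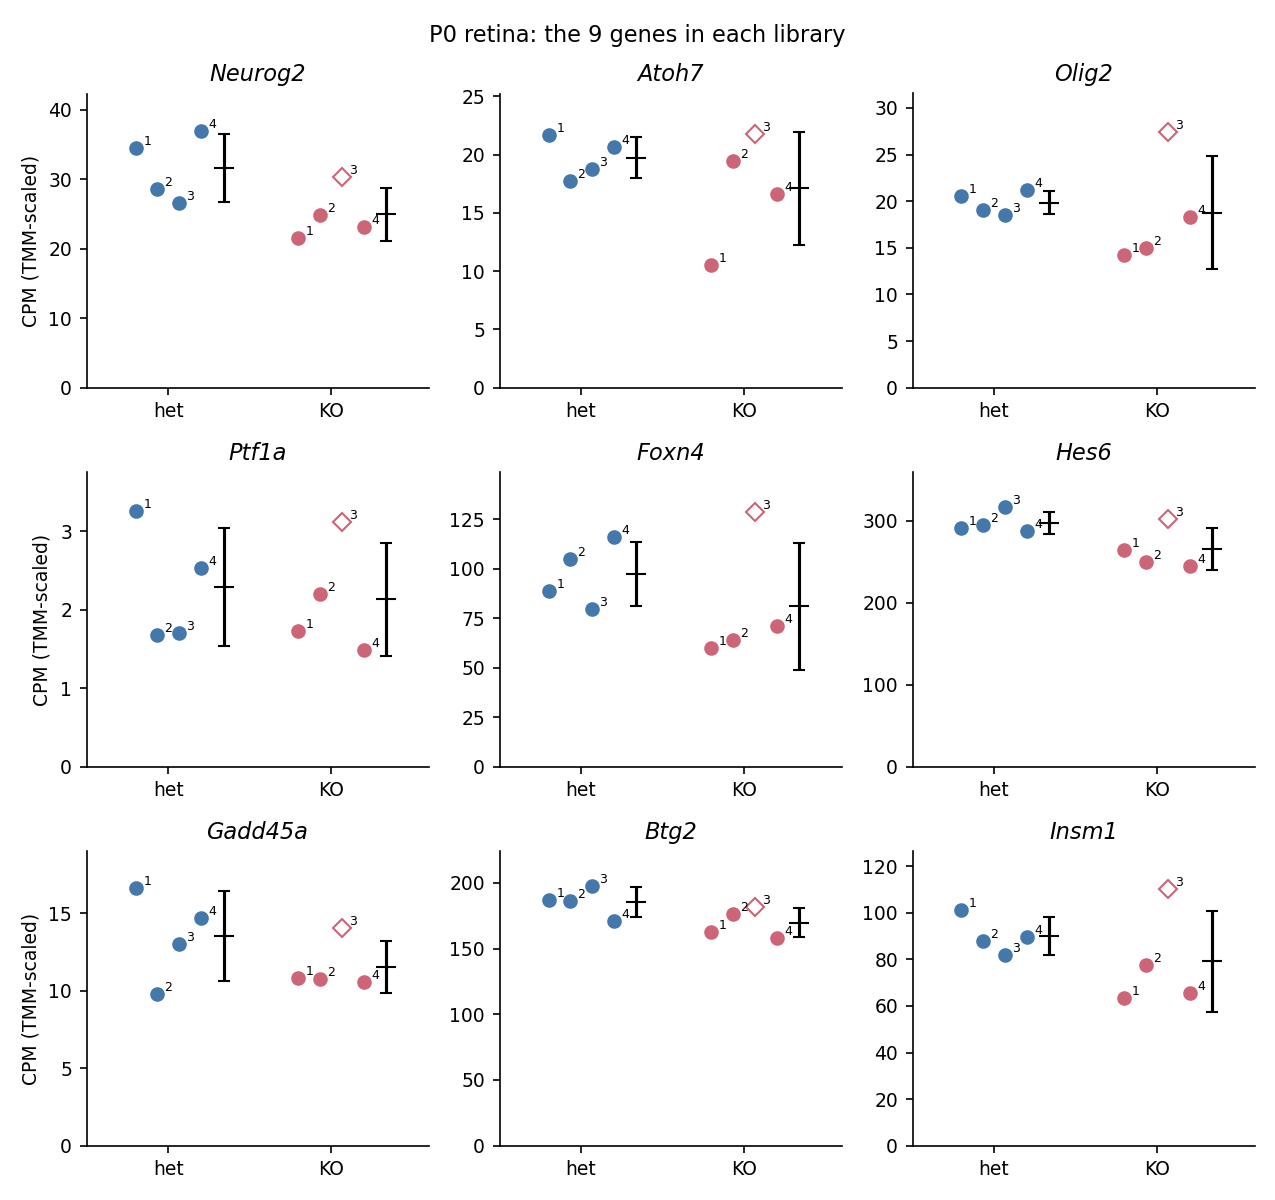
CPM of each of the 9 genes (y axis, TMM-scaled, from 0) in the 4 het (blue) and 4 KO (red) P0 libraries, numbered by replicate, with the mean and SD of each group in black. The open diamond is KO replicate 3, the highest KO library in all 9 panels; for Foxn4 it stands at 129 CPM against 60.2 to 71.2 CPM in the other KO libraries.

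Which of the 5 genes were called without KO replicate 3 depended in part on scaling. Foxn4, Insm1 and Neurog2 were called under all 4 fits that left that library out, with edgeR's TMM, DESeq2 size factors, library totals alone or DESeq2's Wald test. Hes6 and Olig2 were called only with TMM and by the Wald test. Over all genes, library totals alone gave 1156 higher and 1481 lower calls without KO replicate 3, against 399 higher and 2440 lower with TMM. Leaving out any other single P0 library gave 0 calls among the 9.

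The 9 genes varied together from library to library. The Pearson correlation of each gene's log2(CPM + 1) across the 8 P0 libraries with the mean of the other 8 genes ran from 0.56 for Btg2 to 0.96 for Insm1, as a description over libraries that share genotype and preparation. Averaged over the 9 genes as z-scores, KO replicate 3 stood highest at 1.00, the hets between 0.033 and 0.84, and KO replicates 2, 4 and 1 at -0.53, -0.93 and -1.21. Outside the 9, the genes most like this profile among 18793 with a mean of at least 1 CPM were Cln6, Gas1, Zfp664, Peg10 and Pogk. Their Pearson r over the 8 libraries was 0.98 to 0.99. Gas1, a cell surface coreceptor for Hedgehog, read 78.6, 61.3, 66.6 and 77.1 CPM in het and 41.9, 50.4, 97.0 and 43.3 CPM in KO, so KO replicate 3 was again above all hets. Cln6, a membrane protein of the endoplasmic reticulum, read 30.2 to 35.1 CPM in het, 20.9 to 24.7 CPM in KO replicates 1, 2 and 4, and 38.9 CPM in KO replicate 3.

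Among the other genes of neurogenesis and Notch signalling, many but not all had KO replicates 1, 2 and 4 below every het: 9 of 20 neurogenic genes, 10 of 15 Notch ligands, receptors and modifiers, and 4 of 9 Notch effectors, against 15.6% of all genes. Over all 8 libraries edgeR called 0 of the 20 other neurogenic genes in the table, 0 of 15 Notch ligands, receptors and modifiers and 0 of 9 Notch effectors. Their median log2 fold changes were -0.20, -0.18 and -0.21, against 0.028 for all genes. Without KO replicate 3, edgeR called 11 of the 20 neurogenic genes, 8 of the 15 Notch ligands, receptors and modifiers and 5 of the 9 effectors, all lower in KO, against 12.6% of all genes called lower. Medians were then -0.35, -0.34 and -0.38, against 0.016 for all genes. The effector list holds Id1, Id2 and Id3 beside Nrarp and the Hes and Hey genes, and whether Notch drives the Id genes here was not tested.

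Tox3, Sox4 and Elavl3 had log2 fold changes of -0.40, -0.38 and -0.29 over all 8 libraries, each with an edgeR adjusted p of 0.526. Without KO replicate 3 these were -0.80, -0.69 and -0.55, with edgeR adjusted p-values of 0.000238, 0.00093 and 0.00276, so leaving out that library made the calls. Sox4 encodes a factor of newborn neurons and Elavl3 an RNA-binding protein of neurons. Neurod4, a bHLH factor of bipolar and amacrine cells, lay on the other side without being called. It read 291 to 406 CPM in het, 381 to 474 CPM in KO replicates 1, 2 and 4, and 276 CPM in KO replicate 3, the lowest of the 8 (log2 fold change 0.20 over all 8 libraries, and 0.30 without KO replicate 3, SE 0.11, edgeR adjusted p = 0.0967).

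Among Notch genes, the ligand Dll1 read 166 to 174 CPM in het, 118 to 138 CPM in KO replicates 1, 2 and 4, and 189 CPM in KO replicate 3. The receptor Notch2 and the ligands Dll1, Dll3 and Dll4 had log2 fold changes of -0.20, -0.25, -0.25 and -0.29 over all 8 libraries, none called. Without KO replicate 3 they were called at -0.47, -0.46, -0.51 and -0.51. The effector Hes1, a repressor of proneural genes, read 52.96 to 67.3 CPM in het, 37.3 to 45.3 CPM in KO replicates 1, 2 and 4, and 79.2 CPM in KO replicate 3. The effectors Hey2 and Id2 had log2 fold changes of 0.16 and 0.08 over all 8 libraries and 0.11 and 0.03 without KO replicate 3, and were not called in either fit. Heyl, Hes1, Hes5 and Id3 had log2 fold changes of -0.44, -0.21, -0.27 and -0.21 over all 8 libraries, none called, and were called at -0.80, -0.56, -0.63 and -0.38 without KO replicate 3. Summed over their lists, Notch ligands, receptors and modifiers read 2348 to 2651 CPM in het, 1817 to 2136 CPM in KO replicates 1, 2 and 4, and 2897 CPM in KO replicate 3. The effectors read 440 to 464, 306 to 351 and 541 CPM.

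Other cell type lists also held calls without KO replicate 3, in a fit where 12.6% of all genes were called lower (2440 genes) and 399 genes higher. Without KO replicate 3, edgeR called 7 of 14 progenitor genes, 6 of 17 amacrine and horizontal genes and 3 of 10 bipolar and Müller genes, all lower in KO, against 0 in each list over all libraries. Sox9, Lhx2 and Sox2, transcription factors that maintain progenitors, had log2 fold changes of -0.56, -0.29 and -0.25 over all 8 libraries and -1.20, -0.63 and -0.63 without KO replicate 3. Slc32a1, the vesicular transporter for GABA and glycine, and the amacrine factors Tfap2b, Tfap2a and Tfap2c had log2 fold changes of -0.54, -0.49, -0.53 and -0.66 over all 8 libraries and -1.11, -0.81, -1.01 and -0.94 without KO replicate 3. Retinal ganglion cell genes, which lie downstream of Atoh7, had 0 of 12 called, and photoreceptor genes 0 of 14, in both fits. Their medians were -0.16 and 0.16 over all 8 libraries and -0.20 and 0.19 without KO replicate 3. With library totals alone, 6 of those 14 photoreceptor genes were called higher without KO replicate 3. Of 20 genes of the S, G2 and M phases, 0 were called over all 8 libraries (median 0.0054) and 8 were called lower without KO replicate 3 (median -0.097). In bulk tissue, fewer cells of a type and less RNA per cell cannot be told apart.

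Summed over each list, the 9 genes read 750 to 764 CPM in the 4 hets, 609 to 640 CPM in KO replicates 1, 2 and 4, and 819 CPM in KO replicate 3. Primary progenitor genes (4401 to 5012 CPM in het, 3584 to 3676 CPM in the 3 KO libraries, 5393 CPM in KO replicate 3) had the same order, as did bipolar and Müller genes (1538 to 1828, 1189 to 1277 and 1863 CPM). Immediate early genes summed to 167 to 172 CPM in het, 108 to 130 CPM in KO replicates 1, 2 and 4 and 194 CPM in KO replicate 3, but Jun held 38.9% of that sum. Without Jun the other 11 genes summed to 92.8 to 104 CPM in het, and KO replicates 1 (96.1 CPM) and 3 (101 CPM) lay inside that range, while KO replicates 2 (83.4 CPM) and 4 (72.7 CPM) lay below it. Jun, an immediate early gene, had a log2 fold change of -0.59 over all 8 libraries (edgeR adjusted p = 0.526) and -1.19 without KO replicate 3 (edgeR adjusted p = 4.2e-05). EdgeR called 0 of the 12 immediate early genes over all 8 libraries and 3, all lower, without KO replicate 3. Vascular genes, 9 of 11 in the table, summed to 499 to 537 CPM in het, 359 to 425 CPM in KO replicates 1, 2 and 4 and 562 CPM in KO replicate 3, but Kdr, a receptor for vascular endothelial growth factor, held 92.5% of that sum. Without Kdr the other 8 genes summed to 31.5 to 46.8 CPM in het, and KO replicates 1 (33.9 CPM) and 3 (44.5 CPM) lay inside that range, while KO replicates 2 (28.4 CPM) and 4 (27.7 CPM) lay below it. The summed level of S, G2 and M phase genes did not separate the groups (4318 to 5037 CPM in het, 4760 to 5445 CPM in KO replicates 1, 2 and 4). Photoreceptor genes overlapped too, with 1631 to 1976 CPM in het and 1756 to 2026 CPM in KO.

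Tissues next to the retina were detected in part. Lens genes, 10 of 12 in the table, summed to 22.4 to 38.2 CPM in het and 28.3 to 123 CPM in KO, where KO replicate 2 was highest. All 10 had a positive log2 fold change over all 8 libraries (median 0.70, 0 called by edgeR) and without KO replicate 3 (median 0.83, 1 called higher). Pigment epithelium genes, 8 of 12 in the table and without the defining marker Rpe65, summed to 49.0 to 99.2 CPM in het and 68.3 to 133 CPM in KO. Microglial genes, 9 of 10 in the table, summed to 43.9 to 61.6 CPM in het and 39.1 to 57.0 CPM in KO. Red cell genes, 4 of 7 in the table, summed to 17.7 to 33.3 CPM in het and 28.3 to 36.3 CPM in KO. P53 response genes, 12 of 12, summed to 321 to 366 CPM in het and 348 to 366 CPM in KO. EdgeR called 0 of these 12 over all 8 libraries. Without KO replicate 3 it called 2 higher and 1 lower, against 399 higher and 2440 lower of all 19337 genes. Every gene of these lists that was in the table had at least 1 read in each library. The part that the immediate early response, the vascular share or adjacent tissue plays in the values of the 9 genes was not tested.

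**Figure D2:**
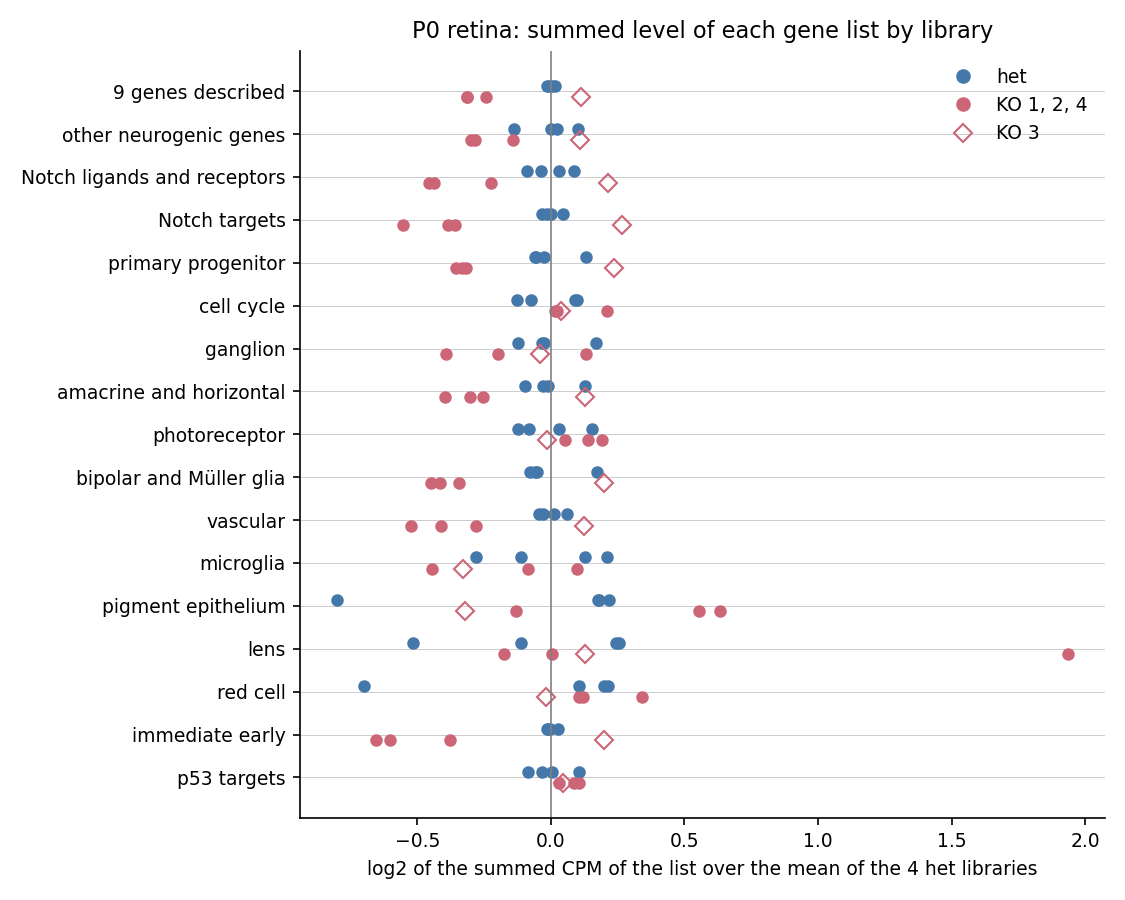
Log2 of the summed CPM of each gene list (rows) in each P0 library over the mean of the 4 het libraries (x axis), with het in blue, KO replicates 1, 2 and 4 in red and KO replicate 3 as an open diamond. For the 9 genes the 3 KO libraries (609 to 640 CPM) lie left of the hets (750 to 764 CPM) and KO replicate 3 (819 CPM) right of them; cell cycle and photoreceptor sums overlap between genotypes.

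At P22, Insm1 was the only 1 of the 4 genes in the table that passed. It read 32.7 and 30.3 CPM in the 2 het libraries and 18.1, 17.7, 22.02 and 21.8 CPM in the 4 KO libraries. Every KO library was below both hets. On the log2 scale KO minus het was -0.65 (SE 0.16, adjusted p = 0.0265 by edgeR), and the exact two-sided permutation p was 0.0667, the smallest that 2 against 4 can give. EdgeR thus called 1 of 4, lower in KO, against 11.2% of all genes called and 6.41% called lower. At an unadjusted p under 0.05 edgeR found 2 of the 4 (Insm1 and Gadd45a), against 28.8% of all genes. The call was not stable: in 5 of 13 alternative fits the adjusted p exceeded 0.05, up to 0.0952 in edgeR without het replicate 2, while the log2 fold change ran from -0.81 to -0.52. Among the 13, the fits that changed only the gene filter removed no gene and repeat the main fit. Het replicate 1 had only 56 Insm1 reads, against 649 in het replicate 2. In the authors' deposited table Insm1 has a false discovery rate of 0.0530 at P22.

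Gadd45a also had all 4 KO libraries below both hets, but the hets were far apart. It read 25.7 and 15.8 CPM in het, from 44 and 338 reads, and 10.1, 10.3, 13.5 and 15.1 CPM in KO. KO replicate 4 came within 1 CPM of het replicate 2. Het replicate 1, the shallow library, also stood apart from het replicate 2 in ganglion genes, 11 of 12 in the table, which summed to 1850 CPM there, 752 CPM in het replicate 2 and 1208 to 1385 CPM in KO. On the first principal component of the P22 genes it lay at -44.8, het replicate 2 at -11.6 and the KO libraries between 6.25 and 18.8. Over 13 alternative fits, those without 1 of the hets included, the Gadd45a log2 fold change ran from -1.08 to -0.38. The part of that library's position in the Gadd45a value was not tested otherwise. KO differed from het by -0.64 in log2 (SE 0.25, adjusted p = 0.119 by edgeR; exact two-sided permutation p = 0.0667). KO libraries lay below both hets for 2 of the 4 genes, against 20.4% of all P22 genes.

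Hes6 and Btg2 did not separate the genotypes at P22. Hes6 was low, at 5.83 and 6.69 CPM in het and 6.06, 6.49, 6.20 and 6.21 CPM in KO, and het replicate 1 had 10 reads. Over all 6 libraries KO minus het was -0.06 in log2 (SE 0.21, adjusted p = 0.885 by edgeR). Btg2 read 54.8 and 84.5 CPM in het and 71.5, 75.9, 63.7 and 72.4 CPM in KO, so the hets spanned the KO range. On the log2 scale KO minus het was -0.02 (SE 0.16, adjusted p = 0.942 by edgeR).

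**Figure D3:**
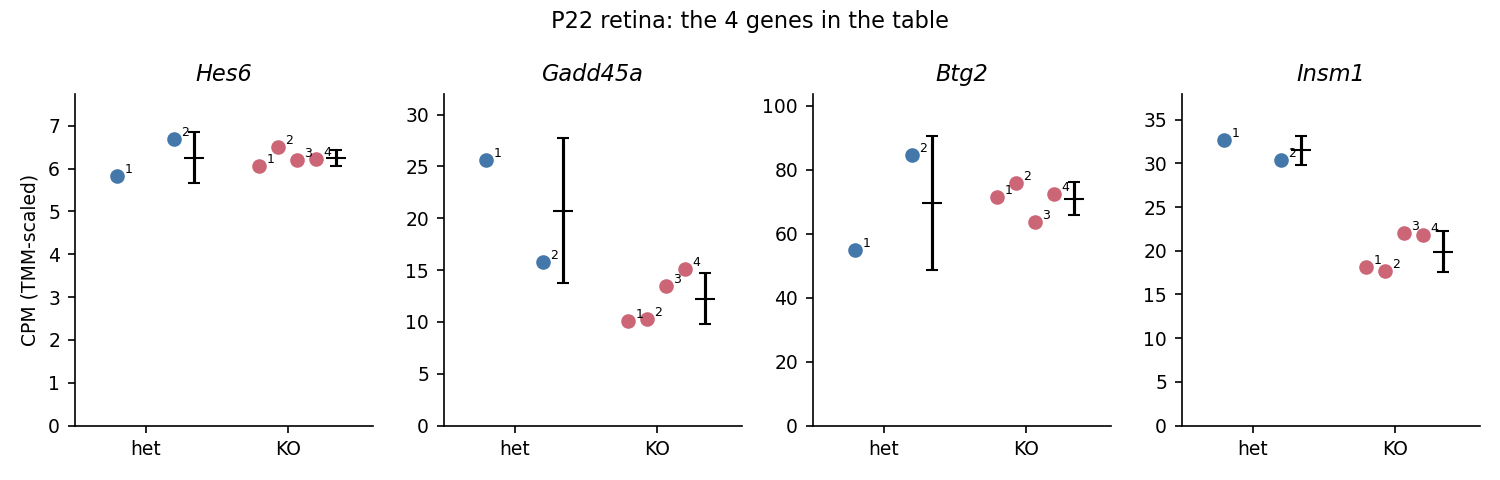
CPM of the 4 genes in the P22 table (y axis, TMM-scaled, from 0) in the 2 het (blue) and 4 KO (red) libraries, numbered by replicate, with mean and SD in black. For Insm1 the KO libraries (17.7 to 22.02 CPM) lie below both hets (30.3 and 32.7 CPM); for Hes6 and Btg2 they lie within the hets' range.

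The other genes of the pathway did not share 1 direction at P22. Of 14 other neurogenic genes in the table, edgeR called 3 higher (4.74% of all genes) and 1 lower in KO (6.41% of all genes). Their median log2 fold change was 0.34, against 0.036 for all genes. Neurod4 rose from 121 and 159 CPM in het to between 309 and 365 CPM in KO (log2 fold change 1.25, SE 0.15, edgeR adjusted p = 0.00624). Neurod2 (0.81) and the small GTPase gene Rnd3 (0.77) also rose on the log2 scale, with edgeR adjusted p-values of 0.0478 and 0.0151. Neurod1, a bHLH factor that photoreceptors keep expressing, fell from 311 and 348 CPM in het to between 193 and 243 CPM in KO (log2 fold change -0.55, SE 0.13, edgeR adjusted p = 0.0221). Of these 4, the call for Neurod4 was kept in all 13 alternative fits, that for Rnd3 in 11, Neurod1 in 10 and Neurod2 in 6. The fits with no filter and with a mean CPM of at least 1 are among the 13 and repeat the main fit.

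EdgeR called 0 of the 10 Notch ligands, receptors and modifiers in the P22 table, against 11.2% of all genes. It found 2 at an unadjusted p under 0.05, both lower, against 28.8% of all genes. Of 4 Notch effectors, Id2, an inhibitor of bHLH factors, was called higher (log2 fold change 0.82, SE 0.24, edgeR adjusted p = 0.0488), against 4.74% of all genes. Hes1, Hey1 and Hey2 were not called. Id2 read 2.92 and 3.41 CPM in het and 5.49 to 6.29 CPM in KO. In het replicate 1, the shallow library, 3 reads are 1.65 CPM. Id2 was called in 5 of 13 alternative fits, including those that changed only the gene filter and repeat the main fit. At an unadjusted p under 0.05 edgeR found 3 of the 4 effectors, all higher, against 28.8% of all genes. The summed level of the 4 was 15.7 and 29.2 CPM in het and 36.0 to 42.1 CPM in KO. The hets were far apart for Hey2, at 5.83 CPM in replicate 1 and 16.0 CPM in replicate 2.

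Lists of cell type genes also differed between the P22 groups, in a fit where 6.41% of all genes were called lower and 4.74% higher. Photoreceptor genes, 14 of 14 in the table, summed to 24304 and 24751 CPM in het and 10503 to 14334 CPM in KO, and edgeR called 9 of them, all lower. Bipolar and Müller glia genes, 12 of 13, summed to 2176 and 2281 CPM in het and 2788 to 3594 CPM in KO, with 5 called, all higher. Amacrine and horizontal genes had 5 of 15 called, all higher. Pigment epithelium genes, 6 of 12 in the table, summed to 149 and 278 CPM in het and 47.7 to 146 CPM in KO. Vascular genes, 4 of 11 in the table, summed to 129 and 132 CPM in het and 194 to 244 CPM in KO, with 2 called, both higher. Red cell genes, 2 of 7 in the table, summed to 14.0 and 16.7 CPM in het and 19.0 to 30.3 CPM in KO, with 0 called by edgeR and 0 at an unadjusted p under 0.05. The part of these cell type differences in the Insm1 and Gadd45a values was not tested.

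A difference of the KO effect between ages was tested in 1 edgeR model over the 11428 genes in both tables. It called 0 of the 4 genes, against 4.1% of all genes, and 0 of the 4 had an unadjusted p under 0.05 in edgeR, against 21.6% of all genes. The smallest unadjusted p by edgeR was 0.0568, for Insm1. The difference in log2 fold change, P22 minus P0, was -0.50 for Insm1 (SE 0.25, edgeR adjusted p = 0.247) and -0.44 for Gadd45a (SE 0.30, edgeR adjusted p = 0.415). It was 0.05 for Hes6 (SE 0.17) and 0.05 for Btg2 (SE 0.17). Without P0 KO replicate 3 the Insm1 difference was -0.29. Over 21 alternative runs the difference ran from -0.62 to -0.29 for Insm1 and from -0.89 to -0.20 for Gadd45a. The ages also differ in library kit, so no level is compared from P0 to P22.

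**Figure D4:**
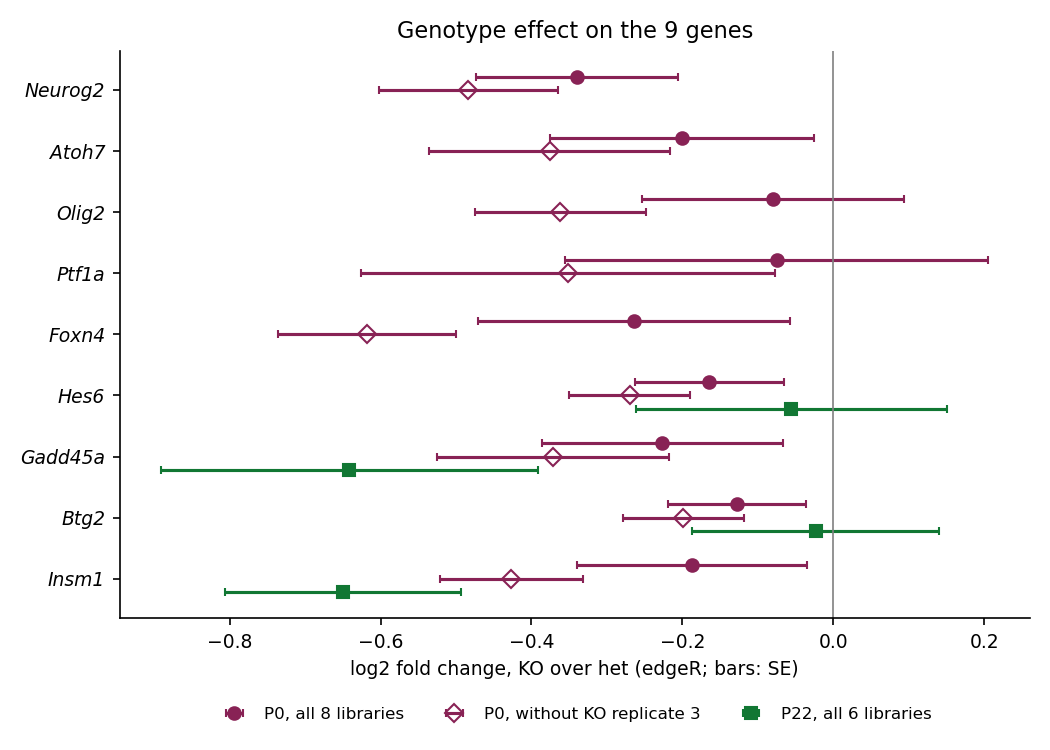
Log2 fold change of KO over het (x axis, bars show the SE) for each of the 9 genes at P0 with all 8 libraries (filled circles), at P0 without KO replicate 3 (open diamonds) and at P22 (green squares, 4 genes). All P0 points lie left of 0, and each moves further left when KO replicate 3 is left out, for Foxn4 from -0.26 to -0.62.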

How the data were processed

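RNA-seq of 14 retina libraries was used, from 1 deposited table per age. Per the submitters' processing notes, Trim Galore, STAR, HTSeq and edgeR were used with the build mm10 (GRCm38). Versions, strand setting and the rule for leaving genes out of the tables are not given in the sources used here. Ribosomal RNA was removed enzymatically for P0 libraries, and P22 libraries came from a stranded total RNA kit, per the labels' protocols. The deposited read counts are whole numbers, not normalized. The deposited CPM values are the authors' scaling, and count divided by CPM gave each library's total. The authors' deposited table also holds log2 fold changes and mean log2 CPM. Its p-values and false discovery rates are the authors' own.

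Counts were tested within each age in R 4.3.3 with edgeR 4.0.16 (filterByExpr, which removed no gene, TMM, glmQLFit, glmQLFTest). P-values were adjusted over all genes by Benjamini-Hochberg, at a threshold of 0.05. DESeq2 1.42.0 and limma 3.58.1 served as alternatives. The SE is the log2 fold change divided by the square root of F. The scripts were tested on simulated data. A floor of 3 reads is 0.151 to 0.200 CPM at P0 and 0.132 to 1.65 CPM at P22, for counting error only.

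The genes and lists were chosen with earlier results of these data known. All 9 genes are named. From other lists at most 4 called genes per direction are named, by smallest p, together with the 5 genes most like the mean z-score of the 9 at P0. Some genes that this rule would name are not reported here. Summed lists, the values of Gas1, Cln6, Jun and Kdr, and P0 Neurod4, Hey2 and Id2 were picked for printing after their values were seen. Gene coordinates are from GENCODE M21 (GRCm38), in which 19299 of 19337 P0 and 11605 of 11613 P22 identifiers matched without version. Same-numbered samples are not stated to be paired, so the main fits have no block. Across genes their deviations from group means correlated at -0.31 to -0.084 over 4 P0 pairs and -0.089 to 0.20 over 2 P22 pairs. With 2 hets at P22 the het deviations are mirror images of each other, so those correlations cannot decide on pairing at P22.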

Additional observations from a re-analysis of the deposited data

Results flagged for a closer look

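In 22 groups of 4 libraries (9 genes in P0 het and P0 KO, 4 genes in P22 KO), the gap between the highest or lowest library and its nearest neighbour was compared with the whole range, and chance alone passes about 1 such group in 20. It was large in 2 groups, both because of P0 KO replicate 3. Foxn4 read 129 CPM there against 60.2 to 71.2 CPM in the other KO libraries, a gap of 0.839 of the range. Gadd45a read 14.0 CPM there against 10.5 to 10.8 CPM, a gap of 0.920 of the range. The cause was not tested.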

How the results depend on the processing

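At P0 edgeR called 0 of the 9 genes in the main analysis, 3 with limma-voom sample weights, and 0 to 5 when 1 library was left out, 5 being the fit without KO replicate 3. Without KO replicate 3, DESeq2's Wald test called 5, library totals alone 3 and DESeq2 size factors 3. Over all genes the P0 count was 1 in the main analysis, 0 with a mean CPM of at least 1, 2150 with sample weights, and 0 to 2839 when 1 library was left out. Without KO replicate 3 it was 3213 by DESeq2's Wald test, 2637 with library totals alone and 2605 with DESeq2 size factors. At P22 the count among the 4 genes was 1 in the main analysis, 0 with library totals alone, 2 with sample weights (Insm1 and Gadd45a) and 0 to 1 when 1 library was left out. It was 0 without het replicate 1, het replicate 2, KO replicate 1 or KO replicate 2; with 1 het left, that library is assumed to vary like the KO group. The P22 count over all genes was 1295, 2675 with sample weights and 344 (without KO replicate 1) to 1273 when 1 library was left out. With library totals alone it was 1488, 1073 higher and 415 lower, against 551 higher and 744 lower with TMM, which moved the all-gene median from 0.036 to 0.17 in log2. The difference between ages was called for 0 of the 4 genes under every alternative run. Over all genes it was called for 468, for 778 with library totals alone, 838 by DESeq2's Wald test, 1581 with sample weights and 52 (without P22 het replicate 2) to 1225 (without P0 KO replicate 3) when 1 library was left out.

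With the replicate number as a block, 0 of the 9 genes were called at P0, 2 of the 4 at P22 (Insm1 and Gadd45a, -0.93 on the log2 scale, edgeR adjusted p = 0.0422) and 0 of the 4 between ages, where the count over all genes was 275. The numbers are not known to pair samples.

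Some log2 fold changes that were not called turned sign. At P0 these were Olig2 without KO replicate 1 (0.029, with a range of -0.36 to 0.029 when 1 library was left out) and Ptf1a without het replicate 1 (0.13), KO replicate 1 (0.012) or KO replicate 4 (0.03), with a range of -0.35 to 0.13. At P22 they were Hes6 without het replicate 2 (range -0.098 to 0.094), and Btg2 with the replicate block (0.085), without het replicate 2 (0.37) or without KO replicate 3 (0.03), with a range of -0.25 to 0.37. Between ages it was Btg2 without P22 het replicate 1 (range -0.17 to 0.47). The cause was not tested. Library totals alone put P22 Hes6 at 0.082 and Btg2 at 0.11, a change of sign set by the shift of all genes that this scaling makes.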
